A study of Mus musculus with 15 samples.

Results

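Chromosome 17 (Chr17) was measured with 1737 array probes, every non-control probe whose deposited position begins with chr17 followed by a colon, taken in order of position, out of 42404 non-control probes in all and 40726 on the 19 autosomes. The probes ran from position 3023355 to position 95172788, with a median spacing of 19230 bp. Of these probes, 1508 carried a gene name or an accession, which gave 909 names, and 229 carried only a position. Array comparative genomic hybridization (aCGH) compares a tissue's DNA with a reference DNA on the same spots, so that the log2 ratio of the signals follows relative DNA copy number. DNA came from 5 tumors classed as hepatocellular carcinoma (HCC) and from 3 livers without tumor, called unaffected livers, of 3 mice with Mad2flox and p53flox alleles and AlbuminCre. In these mice the albumin promoter drives Cre in hepatocytes, which deletes Mad2l1, a core gene of the spindle assembly checkpoint, together with floxed p53.

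Mouse 3151, a female of 16.4 months with the genotype Mad2(f/f) p53(f/+), gave HCC 1 (its tumor 2), HCC 2 (its tumor 1) and unaffected liver 1. Mouse 3760, a male of 13.8 months with the genotype Mad2(f/f) p53(f/f), gave HCC 3 and unaffected liver 2. Mouse 4033, a male of 13.9 months with the same genotype as mouse 3760, gave HCC 4 (its tumor 2), HCC 5 (its tumor 1) and unaffected liver 3. The unaffected livers therefore carry the floxed alleles and the Cre transgene too, and tumor and liver of one mouse are not independent of each other. Each DNA was set against normal liver DNA of the same strain background and of the opposite sex, from wild-type mice. All tissues except HCC 3, which had a forward array alone, were measured in both dye orientations, and both arrays of a tissue were averaged to 1 value. Tumor DNA here is from bulk tissue, so a chromosome lost from some of the cells, a loss diluted by normal cells and a loss from a polyploid genome cannot be told apart.

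Mouse Chr17 carries the H2 complex, the mouse major histocompatibility complex (MHC) whose class I and class II molecules present peptides to T cells. It also carries clusters of olfactory and vomeronasal receptor genes, which neurons of the nose use to detect odors and pheromones and which commonly vary in copy number between mouse strains. Genes of interest in liver tumors on this chromosome include Igf2r, which clears the growth factor Igf2, the Wnt pathway inhibitor Axin1, the mTOR inhibitor Tsc2, and Cdkn1a, the p53 target that encodes p21. Mad2l1bp, whose product binds Mad2 and silences the spindle checkpoint, lies here as well. In an array measurement of this kind, loss or gain of a whole chromosome shifts all of its probes together, whereas an inherited copy variant shifts a short run of neighboring probes by the same amount in every tissue of an animal.

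Of the probes on which the results turn, the following are shown with their sequences, in lower case throughout, as the scanner files list them. Strand and genome build are not given in the sources used here, and positions are those of the files. The first 5 span the edges and the interior of a block of raised copy number, with a probe inside Btbd9 on each side of its first edge.

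Btbd9, outside the block, chr17:30514278-30514337: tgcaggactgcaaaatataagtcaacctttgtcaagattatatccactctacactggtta
Btbd9, inside the block, chr17:30622143-30622202: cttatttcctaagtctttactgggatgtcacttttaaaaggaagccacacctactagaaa
Glo1, inside the block, chr17:30739775-30739833: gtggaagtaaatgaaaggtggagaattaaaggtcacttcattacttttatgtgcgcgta
Glp1r, last probe of the block, chr17:31060146-31060205: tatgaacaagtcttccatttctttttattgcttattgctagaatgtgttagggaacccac
Umodl1, first probe past the block, chr17:31096877-31096934: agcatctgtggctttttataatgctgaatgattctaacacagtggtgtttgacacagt

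The next 5 are single probes whose ratios differed between the mice, though not the 5 with the widest range among the livers. They are Ezr (ezrin, which ties the plasma membrane to actin), an MHC class I sequence listed as J00393, the kinetochore gene Cenpq, Cdc42ep3 (an effector of the GTPase Cdc42) and a probe with no gene name.

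Ezr, chr17:6968837-6968896: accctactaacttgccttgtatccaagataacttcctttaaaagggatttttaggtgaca
No gene name, chr17:20196706-20196765: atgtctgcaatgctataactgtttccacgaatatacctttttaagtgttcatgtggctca
J00393, chr17:36276063-36276122: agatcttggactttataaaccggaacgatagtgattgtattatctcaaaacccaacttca
Cenpq, chr17:41068685-41068744: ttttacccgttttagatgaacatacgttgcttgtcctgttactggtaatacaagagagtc
Cdc42ep3, chr17:79745908-79745967: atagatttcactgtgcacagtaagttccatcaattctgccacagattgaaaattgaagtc

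Before the results, some facts about the arrays bear on them. Per array, the median signal of the Chr17 spots was 3.43 to 7.03 times background in green and 3.94 to 8.79 times background in red, 0.227% to 2.78% of the spots were not well above background, and no spot was saturated. Slides 1 and 2 were scanned on a first day and held HCC 3, HCC 5 and unaffected livers 2 and 3, whereas slides 3 and 4 were scanned on a second day and held HCC 1, HCC 2, HCC 4 and unaffected liver 1. The probes were noisier on the tissues of the second day and in HCC 3, with a noise between neighboring probes of 0.18 to 0.21 on the log2 scale, than in HCC 5 and unaffected livers 2 and 3, with 0.090 to 0.11. The files hold no probe counts, and the number of arrays limits the precision.

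Chr17 was lost in HCC 1 and HCC 4, by the study's limit of 0.3 on the mean log2 ratio of a chromosome. Its level, the mean log2 ratio of all 1737 probes after centering each array on its autosomal median, was -0.35, -0.24, -0.011, -0.41 and 0.078 in HCC 1 to 5. The 3 unaffected livers had levels of -0.066, -0.00082 and -0.0077. Thus 3 of the 5 HCC were lower than every liver, HCC 3 lay among the livers, and HCC 5 was higher than all of them. In these 3 low HCC both dye orientations gave nearly the same level, -0.36 and -0.34 for HCC 1, -0.25 and -0.22 for HCC 2, and -0.43 and -0.40 for HCC 4. Their shifts were far larger than the difference between arrays of the same DNA. Unaffected liver 1 varied more, with -0.10 on the forward and -0.031 on the dye-swap array. For scale, the X chromosome of the livers, which differs by 1 copy from the opposite-sex reference, had a mean level of 0.89 in size. The Chr17 level of HCC 4 was -46.5% of that size, that of HCC 1 was -39.1% and that of HCC 2 was -26.5%. Expressed as a ratio, HCC 4 had 24.9% less Chr17 signal than an average autosomal probe and HCC 1 had 21.4% less.

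Both tumors of mouse 3151 were low, and the tumors of mouse 4033 were not alike. HCC 1 was lower than HCC 2 by 0.11, while HCC 4 and HCC 5, taken from the same liver, differed by 0.49. Against the unaffected liver of its own mouse, HCC 1 to 5 were at -0.28, -0.17, -0.010, -0.41 and 0.086. In HCC 4, 96.3% of the Chr17 probes lay below their value in the own liver, and in HCC 1 and HCC 2 this held for 86.5% and 81.5%. The share was 54.9% in HCC 3 and 21.4% in HCC 5. Among the 19 autosomes of a tissue, Chr17 was the lowest in HCC 2 and the second lowest in HCC 1 and HCC 4. Chr11, picked after its values were seen, was close to it, at -0.32, -0.22, 0.023, -0.27 and 0.079 in HCC 1 to 5. Chr17 held rank 10 from the lowest in HCC 3 and rank 11 in HCC 5. Centering on the most common autosomal ratio in place of the median moved HCC 5 below 0, to -0.20, and left HCC 1 at -0.50 and HCC 4 at -0.48, so the sign of the level in HCC 5 depends on where zero is set. HCC 2 was then at -0.15, above HCC 5 and farther from HCC 1.

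**Figure D1:**
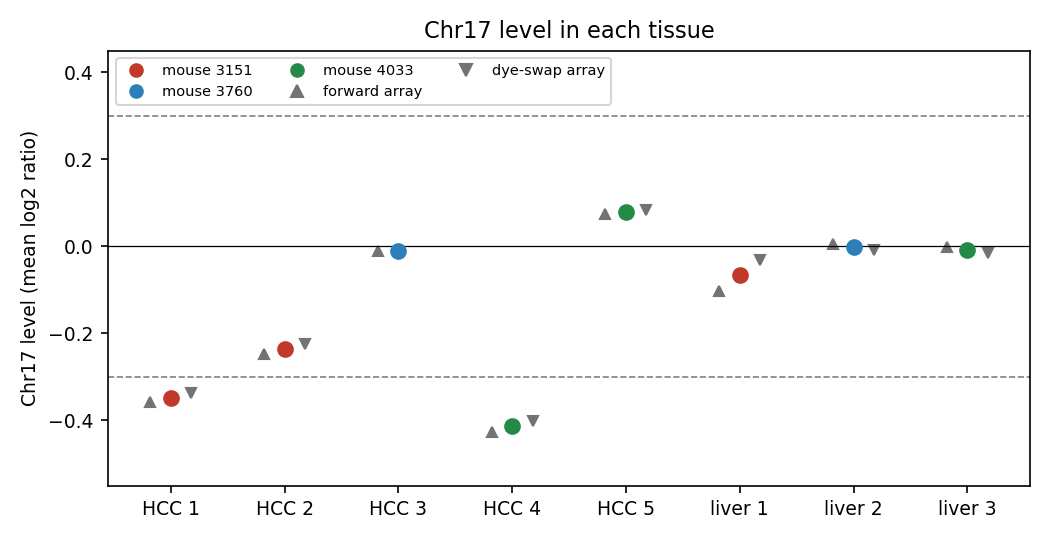
Chr17 level of each tissue (y axis, mean log2 ratio of 1737 probes), with colored circles for the tissue value by mouse and gray triangles for its forward and dye-swap arrays; dashed lines mark the limit of 0.3. HCC 1 (-0.35) and HCC 4 (-0.41) lie past the lower limit, and HCC 2 (-0.24) lies between them and the livers. Both orientations of a tissue lie close together, least so in unaffected liver 1 (-0.10 and -0.031).

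As a group, the HCC did not pass the test. Their mean level was -0.19 ± 0.21 (SD, n = 5) and that of the unaffected livers was -0.025 ± 0.036 (SD, n = 3), a difference of -0.16 with a 95% confidence interval of -0.41 to 0.089 (limma across 19 autosomes, SE 0.12, adjusted p = 0.45). The exact permutation test over the 8 tissues gave a two-sided p = 0.29, where the smallest value that 56 arrangements allow is 0.018. Of the 19 autosomes, 5.26% passed the limma test. The difference did pass when tissues were weighted by their residual spread over the autosomal probes, at -0.24 with an adjusted p of 0.017 from limma, a fit that called 42.1% of the 19 autosomes and in which HCC 5 had the smallest weight (0.287) and unaffected liver 2 the largest (6.25). Without HCC 5 it was -0.23, with an adjusted limma p of 0.14.

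Scan day moved with the level. On the second day, the mean of 3 HCC was -0.33 against -0.066 in the only liver, a difference of -0.27. On the first day, the mean of 2 HCC was 0.034 against -0.0042 in 2 livers, a difference of 0.038. With scan day as a term the difference was -0.093 (limma, adjusted p = 0.61). The part of scan day in the result was not tested beyond this, because all of the HCC with a low level were scanned on the second day. The extraction protocol also differed with the day, CGH-v4_91 on the first and CGH-v4_91_3 on the second. Scan day and protocol therefore cannot be told apart. HCC 1 and HCC 2 remained below unaffected liver 1, which was scanned on the same day. HCC 4 was scanned on the second day, whereas HCC 5 and unaffected liver 3 of the same mouse were scanned on the first. The differences of HCC 4 from both therefore cross scan days.

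In HCC 1 and HCC 4 the low level ran from end to end of the chromosome. In windows of 5 Mb with at least 10 probes, of which Chr17 had 19, the level of HCC 4 ranged from -0.54 to -0.35 and was at or past -0.3 in all 19. In HCC 1 the windows ranged from -0.41 to -0.30, with 17 of 19 at or past -0.3, and in HCC 2 they ranged from -0.29 to -0.16. HCC 3 ranged from -0.062 to 0.083 and HCC 5 from -0.012 to 0.20. The windows of unaffected livers 1, 2 and 3 ranged from -0.14 to -0.022, from -0.026 to 0.075 and from -0.14 to 0.088. No window of HCC 4 or HCC 1 therefore returned to the level of its liver. When HCC were taken minus the liver of their own mouse and divided into segments of constant mean, each of the 5 HCC gave 1 segment that held all 1737 probes. Other settings did divide some of them. HCC 1 gave 2 segments with normexp, of means -0.30 and -0.22 with the step between positions 35336469 and 35340345, and 2 with a penalty of 2, of means -0.32 and -0.25, while HCC 5 gave 3 with a penalty of 2, of means 0.073 to 0.15. With a shortest segment of 3 probes, HCC 3 gave a segment of 3 probes with a mean of 1.10. HCC 2 and HCC 4 gave 1 segment under every setting.

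**Figure D2:**
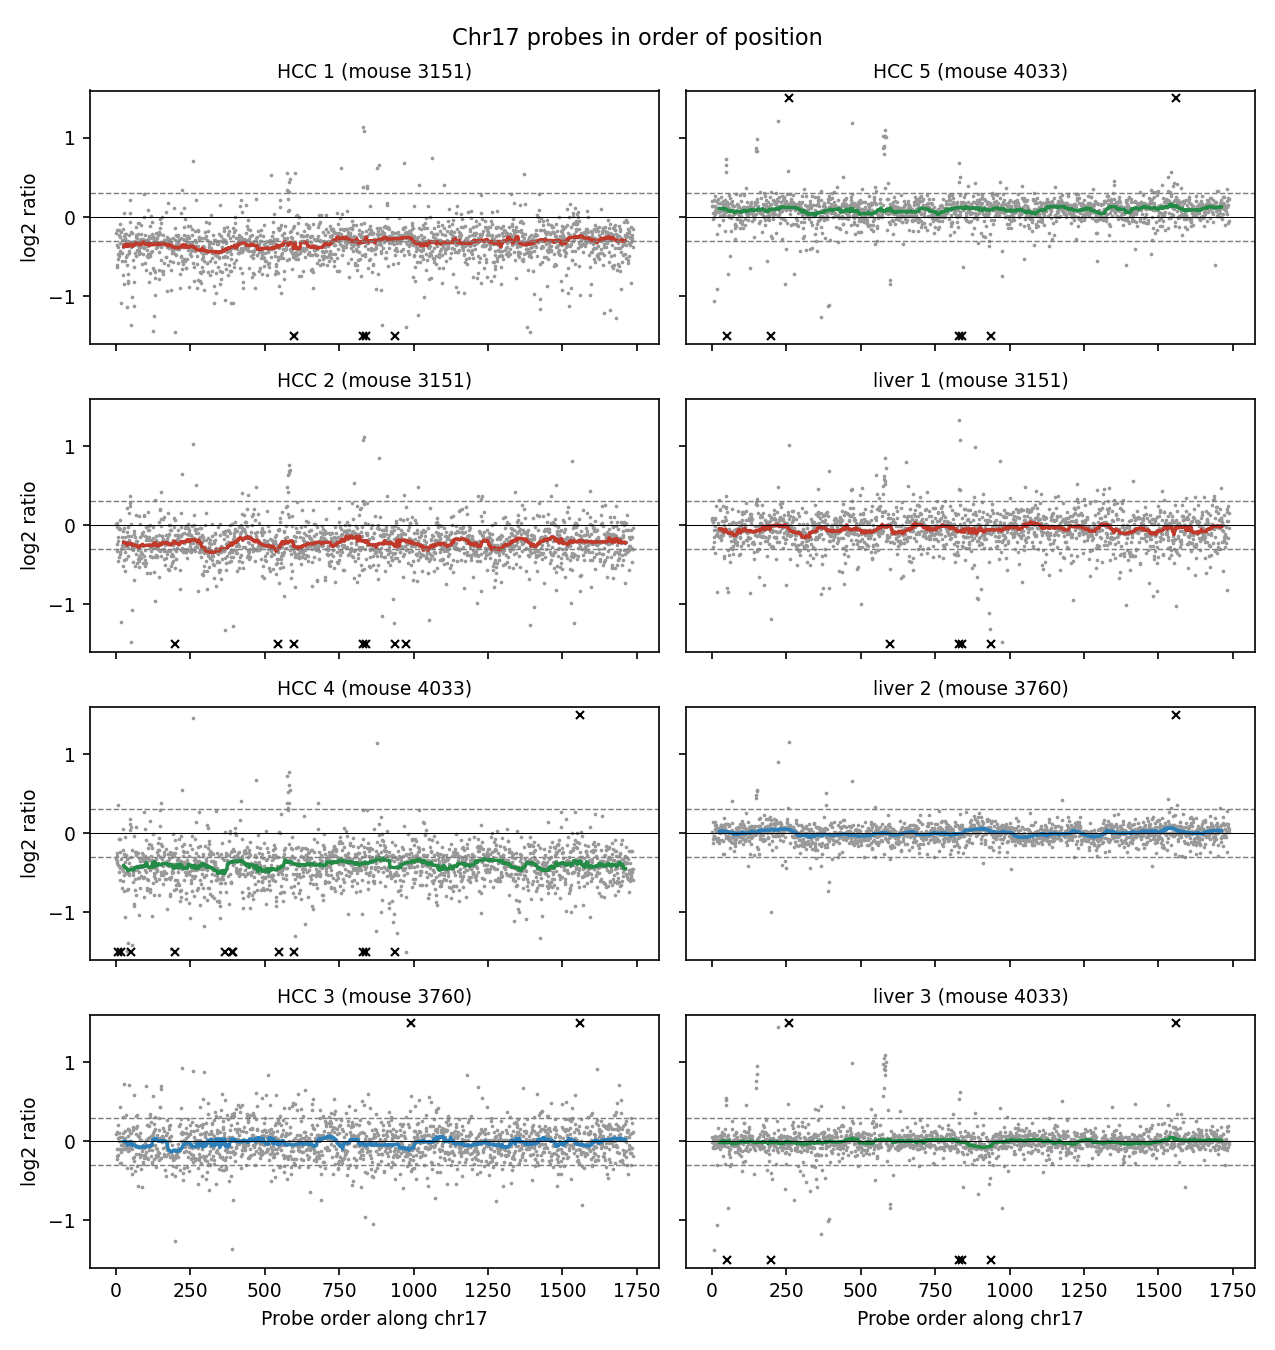
log2 ratio (y axis) of the 1737 Chr17 probes in order of position (x axis) in each tissue, as gray points, with the running median of neighboring probes colored by mouse; crosses at the edge are probes beyond 1.5 in size and dashed lines mark 0.3. The running median stays low along the whole of HCC 1 and HCC 4 and somewhat less so in HCC 2, and stays near 0 in HCC 3 and the livers.

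None of the 19 Chr17 windows passed the limma test of HCC against unaffected livers at an adjusted p of 0.05, compared with 0.826% of all 484 autosomal windows, and none had an unadjusted p below 0.05, compared with 9.71% of all windows. The differences between the groups were nonetheless alike in all 19 windows, from -0.19 in the window that starts at 15 Mb to -0.13 in that at 70 Mb, and the smallest adjusted p was 0.52. With tissues weighted as above, all 19 windows passed, in a fit that called 30.4% of all 484 autosomal windows. By probe, 0 of 1737 passed (0% of all 40726) and 32 had an unadjusted p below 0.05, which is 1.84% of the Chr17 probes against 7.4% of all autosomal probes. In 26 probes all HCC lay below all livers, 1.5% against 3.22% of all autosomal probes, and in 3 all HCC lay above all livers, 0.173% against 5.3%. In the fit without weights, the shares of windows and probes with an unadjusted p below 0.05 or without overlap were lower on Chr17 than over the autosomes. The order turned in other fits. With tissue weights, 630 Chr17 probes (36.3%) had an unadjusted limma p below 0.05 against 20% of all autosomal probes, although none passed the adjusted test against 1.09% of all probes. Without HCC 5, 291 probes (16.8%) had an unadjusted limma p below 0.05 against 9.3% of all autosomal probes. In that fit 14 of the 19 windows had an unadjusted limma p below 0.05, against 20.5% of all windows, and 0 passed the adjusted test, against 3.72%.

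Of the probes with the smallest p and the largest differences without overlap, a Zfp811 probe (zinc finger protein) at chr17:32934254-32934313 came first in both. Its values were -0.48, -0.26, -0.093, -0.63 and -0.060 in HCC 1 to 5 and 0.80, 0.051 and 0.012 in the livers, a difference of -0.59 (limma, adjusted p = 0.46). Its groups did not overlap, but the 0.80 of unaffected liver 1 stood apart from the other livers. The Spast probe, in the gene of the microtubule-severing enzyme spastin, had -0.11, -0.17, -0.15, -0.56 and 0.011 in the HCC. The livers, at 0.24, 0.17 and 0.22, lay close together and above every HCC at this probe, with a difference of -0.41 (limma, adjusted p = 0.54). With both Spast probes of the array averaged, the groups overlapped. The gene was then at -0.23, -0.24, 0.16, -0.47 and -0.079 in HCC 1 to 5 and at -0.12, 0.16 and 0.13 in the livers (difference -0.23, limma adjusted p = 0.71). Probes of 1300018I05Rik, AK034626 and Zfp677 completed the 5 with the smallest p, at differences of -0.53, -0.39 and -0.39. Probes of 1700027N10Rik, the photoreceptor gene Guca1a and the chromatin remodeler gene Chd1 completed the 5 with the largest differences without overlap, at -0.42, -0.41 and -0.39.

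Genes of mitosis and the spindle followed the chromosome. Of the 18 genes of this list on the array, 0 passed the limma test over 19973 autosomal gene names (0% of all names passed), and 17 had a difference below 0, as did 96.3% of all Chr17 names and 51.4% of all autosomal names. Their median was -0.18 against -0.16 over all 909 Chr17 names and -0.0079 over all autosomal names. In HCC 4, 15 of the 18 were at or below -0.3, against 72.2% of all Chr17 names and 18.9% of all autosomal names. In HCC 1 12 were, against 60.2% and 21.2%. The counts below 0 of this list and of the lists that follow are to be read against the 96.3% of the chromosome. Mad2l1bp, with 3 probes, had -0.27, -0.19, -0.041, -0.43 and 0.17 in HCC 1 to 5 and -0.043, -0.051 and 0.00016 in the livers. The order of the HCC was thus that of the whole chromosome, with HCC 4 lowest and HCC 5 above the livers (difference -0.12, 95% confidence interval -0.43 to 0.19). Sgol1, now named Sgo1, which protects cohesion at centromeres, was at -0.33, -0.45, -0.12, -0.43 and 0.13 in the HCC and at -0.45, -0.019 and -0.023 in the livers. The motor protein gene Kifc1, which gathers extra centrosomes into spindle poles, had -0.43 in HCC 1 and -0.39 in HCC 4 and between 0.0069 and 0.077 in the other HCC, with livers at 0.14, -0.027 and -0.0013. The lowest and highest differences of the list were -0.33 for Pkmyt1, the kinase that inhibits Cdk1, and 0.0069 for the tubulin gene Tubb4. Cenpq, a kinetochore gene, had -0.85, -0.71, -0.23, -0.68 and -0.034 in the HCC and -0.80, 0.059 and -0.24 in the livers, so the livers differed among themselves by more than the group means did.

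Among the 43 growth control and tumor genes, 0 passed and 40 had a difference below 0, with a median of -0.16. Axin1 was at -0.36, -0.12, -0.024, -0.51 and 0.076 in HCC 1 to 5 and at 0.074, -0.012 and 0.049 in the livers (difference -0.22, limma adjusted p = 0.71), and the difference was -0.14 without HCC 4. Igf2r was at -0.24, -0.40, -0.19, -0.69 and 0.076 in the HCC and at -0.16, -0.23 and -0.067 in the livers. For both genes HCC 4 was the lowest tissue and HCC 5 the highest. Tsc2 was lowest in HCC 1, with -0.58, and at -0.36, -0.11, -0.44 and 0.11 in HCC 2 to 5, but unaffected liver 1 was also low at -0.44, with -0.15 and -0.057 in the other livers. The single Cdkn1a probe ranged from -0.92 in HCC 4 to 0.59 in HCC 3 and from -0.42 to 0.24 among the livers, a wider spread than the chromosome showed. Vegfa, an angiogenic growth factor gene, had 0.13 in HCC 1 and 0.039 in HCC 4 although their chromosomes were low, and its group difference was 0.061. The lowest difference was -0.48 for Srf, a transcription factor gene of the serum response, but it was -0.15 with normexp background correction, -0.19 with outlier marks kept, -0.27 without HCC 2 and -0.31 without unaffected liver 1. The highest was 0.16 for the phosphatase gene Dusp1; the latter turned to -0.077 without unaffected liver 1.

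Of the 36 genes of liver metabolism and plasma proteins, 0 passed, 1 had an unadjusted p below 0.05 (8.12% of all autosomal names, 2.42% of Chr17 names), and all 36 had a difference below 0, with a median of -0.15. That gene was Cyp4f14, a fatty acid hydroxylase gene, at -0.49, -0.47, 0.21, -0.53 and 0.17 in the HCC and at 0.50, 0.031 and 0.076 in the livers (difference -0.42, limma adjusted p = 0.61). It was -0.28 without unaffected liver 1 and -0.26 with forward arrays alone, with unadjusted limma p-values of 0.23 and 0.26. Plg, the plasminogen gene, was at -0.53, -0.17, 0.060, -0.24 and -0.0056 in the HCC against -0.013, -0.059 and -0.019 in the livers. Of the 21 antigen presentation genes, 0 passed and 18 had a difference below 0, with a median of -0.18, from -0.37 for the class II gene H2-Ea to 0.14 for H2-M10.4. This list took names that start with H2- whatever their function, among them H2-Ke2 (now Pfdn6) and H2-Ke6. H2-M10.4, a class I gene of vomeronasal neurons, was at 0.36 and 0.27 in HCC 1 and HCC 2 of mouse 3151 and at -0.40, -0.50 and -0.64 in the remaining HCC, while the livers were at -0.14, -0.26 and -0.58, so that unaffected liver 1 did not share the raised level of the tumors of its mouse. Its difference was 0.0084 without HCC 1, 0.030 without HCC 2 and 0.018 without unaffected liver 3. That of H2-Ea was -0.063 with normexp background correction and -0.24 without HCC 4. Of the 38 chemosensory and formyl peptide receptor genes, 0 passed and all 38 had a difference below 0, with a median of -0.19, from -0.30 for V1rf4 to -0.017 for Olfr112. The V1rf4 difference was -0.045 with normexp, -0.19 with forward arrays alone and -0.18 without HCC 1.

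In HCC 4 minus its own liver, the list medians were -0.40, -0.40, -0.37, -0.35 and -0.29 for mitosis, growth control, liver metabolism, antigen presentation and chemosensory genes, and in HCC 1 they were -0.22, -0.24, -0.28, -0.37 and -0.31. No list was spared in either tumor. In HCC 5 the same medians were 0.076, 0.090, 0.081, 0.11 and 0.13, all above 0.

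**Figure D3:**
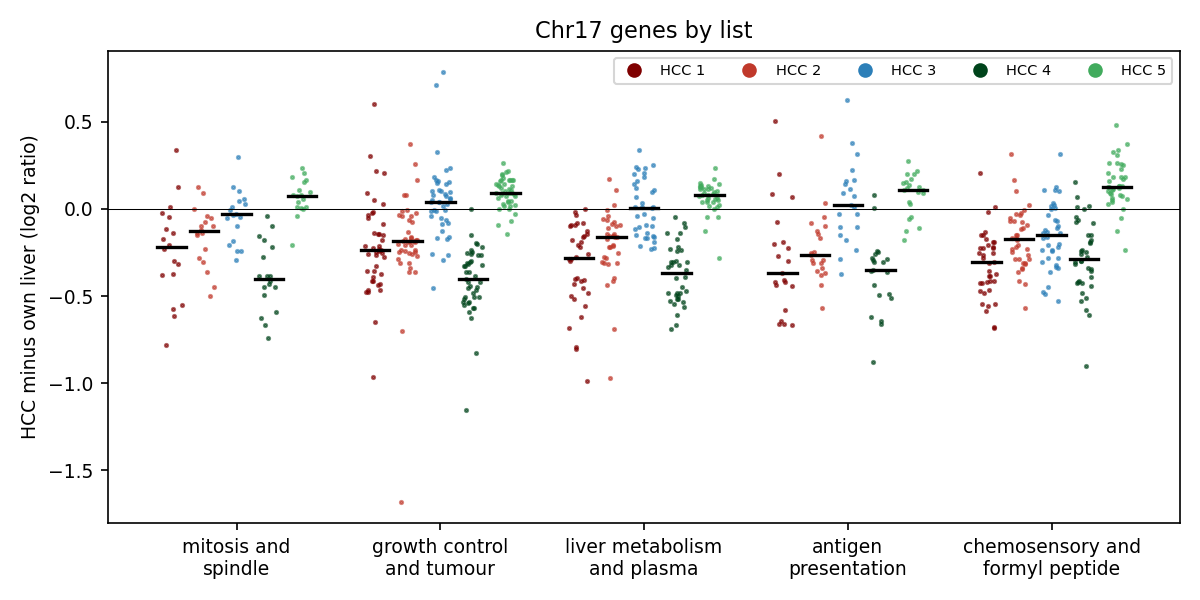
HCC minus the unaffected liver of the same mouse (y axis, log2 ratio) for each Chr17 gene of the 5 lists (x axis), with points for genes, colors for HCC 1 to 5 and black bars for the median of a list in a tumor. The medians of HCC 4 run from -0.40 to -0.29 and those of HCC 5 from 0.076 to 0.13, whichever list is taken.

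Against the reference, Chr17 held 90 segments over the 8 tissues, of which 43 had a mean at least 0.3 from the Chr17 median of their tissue. In 29 of these the remaining probes without the most extreme one averaged less than 0.3, which leaves 14 that did not rest on 1 probe. These values chose the regions described next, which are given as description without a test.

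A block of 10 consecutive probes at chr17:30622143-31060205, 438 kb long, was raised in every tissue of mice 3151 and 4033 and in no tissue of mouse 3760. It runs from Btbd9, a BTB domain gene, through Glo1, which encodes glyoxalase I and clears methylglyoxal, and the axonemal dynein gene Dnahc8 (now Dnah8) to Glp1r, the receptor of the incretin hormone GLP-1. Segmentation placed both edges at the same probes in 6 profiles, HCC 1, HCC 2, HCC 4, HCC 5 and unaffected livers 1 and 3. On forward arrays alone, which are noisier, no segment was called there in unaffected liver 1, although the mean of the block was 0.51, and HCC 2 had a segment with other edges. The mean of the block relative to the Chr17 median of the tissue was 0.56, 0.71, -0.021, 0.84 and 0.81 in HCC 1 to 5 and 0.56, -0.027 and 0.90 in the livers. The 20 flanking probes, 10 on each side, had means of -0.045 to 0.022 in all 8 tissues, so the step was seen at both edges. In unaffected liver 3 all 10 probes lay above the highest flanking probe, in HCC 4, HCC 5 and HCC 1 9 did, and in HCC 2 and unaffected liver 1 8 did. In mouse 3760, no probe of the block lay above the highest flanking probe in either tissue. In size, the block of unaffected liver 3 was at 102% of the mean X level of the livers. That of unaffected liver 1 was at 63.2%. The X difference is that between 1 and 2 copies, so these shares do not give the copies gained on an autosome.

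The edges lay between neighboring probes of the array. The Btbd9 probe outside the block, whose sequence is given above, had values relative to the Chr17 median of -0.18 to 0.066 in all 8 tissues, and the next Btbd9 probe, 108 kb further on, had 0.88, 0.47, 0.78 and 0.79 for HCC 1, HCC 2, HCC 4 and HCC 5 and 0.44 and 0.58 in unaffected livers 1 and 3. At the other edge the last Glp1r probe had 0.81, 0.93, 0.95 and 0.92 in these HCC and 0.78 and 1.01 in the livers, and the first Umodl1 probe, 36.7 kb further on, had between -0.16 and 0.14 in all 8 tissues. Inside the block one of the Dnahc8 probes fell behind its neighbors, at -0.20 in HCC 1 and between 0.23 and 0.34 in the others that carried the block except unaffected liver 3, where it had 0.84. In unaffected liver 1 a Glo1 probe was as low, at 0.22.

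Because the block rose above a chromosome that was itself low in some tumors, its absolute level differed. HCC 1 had 0.23 and HCC 4 had 0.44, where the flanks were at -0.37 and -0.39, while HCC 5 and unaffected liver 3 both had 0.90, where the flanks were at 0.096 and 0.016. The gene level of Glo1, from 2 probes, accordingly was 0.16, 0.28, -0.070, 0.31 and 0.84 in HCC 1 to 5 and 0.38, -0.14 and 0.79 in the livers, and the group difference of -0.040 (limma, adjusted p = 0.96) mixed both sources of variation.

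**Figure D4:**
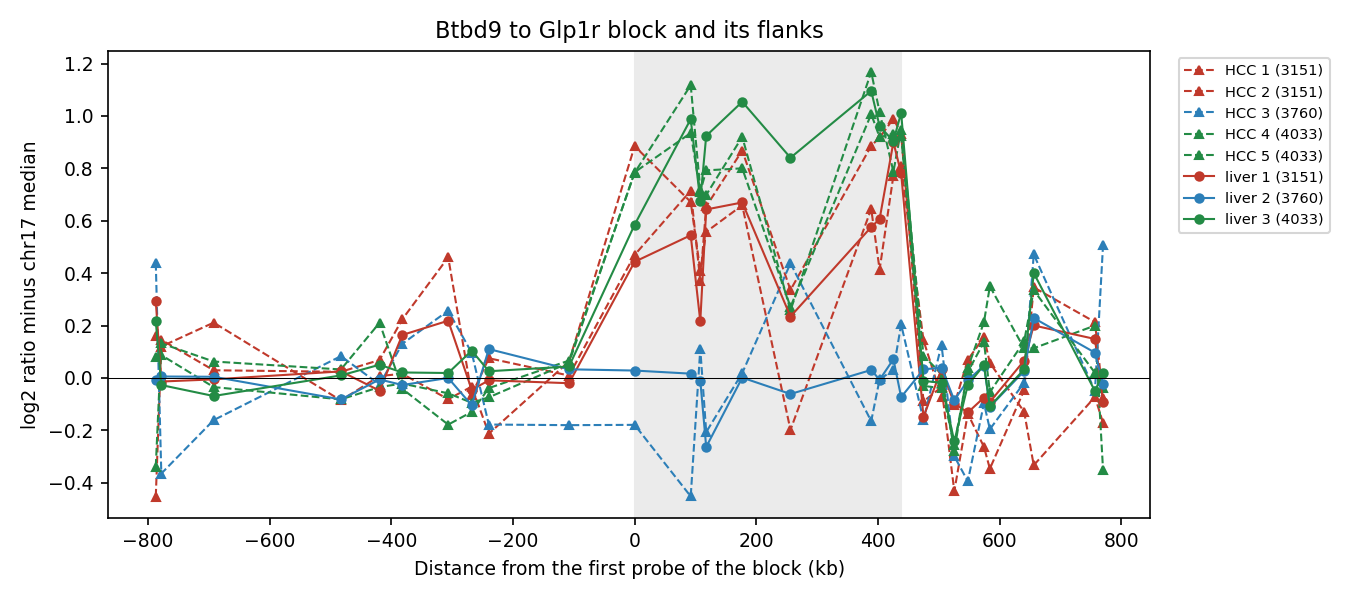
log2 ratio minus the Chr17 median of the tissue (y axis) for the 10 probes of the block (shaded) and 10 probes on each side, by distance from the first probe of the block (x axis, kb), with circles for livers, triangles for HCC and colors for mice. Tissues of mice 3151 and 4033 rise in the shaded block (means 0.56 to 0.90), while both tissues of mouse 3760 (means -0.021 and -0.027) stay at the level of the flanks.

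The other regions that did not rest on 1 probe in at least 1 tissue were shorter, with 5 probes each. At chr17:15107388-15229708, over LOC100041586, 9030025P20Rik and M26332, the mean relative to Chr17 was 0.22, 0.40 and 0.66 in unaffected livers 1 to 3 and 0.094, 0.40, 0.47, 0.42 and 0.66 in HCC 1 to 5, so that all 8 tissues were above their own Chr17 median. Against the reference DNA, HCC 1 was at -0.23 and HCC 4 at 0.021 here. At chr17:36326541-36392645, around the nonclassical MHC gene H2-T3, it was 0.68, 0.080 and 0.26 in the livers and 0.65, 0.57, 0.087, 0.22 and 0.22 in the HCC, highest in the 3 tissues of mouse 3151. At chr17:41068685-41161691, with Cenpq, the methylmalonyl-CoA mutase gene Mut and a probe without a gene name, it was -0.88, 0.0096 and -0.67 in the livers and -0.90, -0.89, -0.12, -0.59 and -0.58 in the HCC. Here mouse 3760 again had the values nearest to 0 while the other mice were low. In HCC 2, HCC 5 and unaffected liver 3 this region did rest on 1 probe, that without a gene name. Relative to Chr17, the Cenpq probe was at -1.26 and the unnamed probe at -3.19 in unaffected liver 1. The unnamed probe was at -2.47 in HCC 4. Mut, from 3 probes, had levels of -0.040, 0.0046 and -0.052 in the livers and so was not itself low there.

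Single probes showed the same division between the mice. The paper attributed some apparent copy changes in its tumors to hybridization artifacts of the mixed strain background. Whether a single displaced probe here reflects copy number or a sequence difference under the probe was not tested. Of the Chr17 probes, 100 (5.76%) were at least 0.5 from the Chr17 median in at least 1 unaffected liver, compared with 4.36% of autosomal probes measured in the same way. They numbered 79, 10 and 46 in unaffected livers 1 to 3, and 53 were seen in the noisier unaffected liver 1 alone. In 20 probes unaffected livers 1 and 3 were displaced in the same direction and unaffected liver 2 was not. Of these, 7 lay in the block and 13 elsewhere. The tumors had no part in this choice, but they share inherited DNA with the livers of their mice and so are no independent check. All 20 probes were displaced by at least 0.25 in the same direction in HCC 1, HCC 2 and HCC 5. In HCC 4, 19 of them were, and in HCC 3, 2 were. The median size of the displacement was 0.79, 0.99, 0.14, 1.06 and 0.92 in HCC 1 to 5, smallest by far in HCC 3.

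Over all 100 probes, each of the 5 HCC lay nearest to the liver of its own mouse. The mean absolute difference from the own liver was 0.37, 0.36, 0.23, 0.25 and 0.15 in HCC 1 to 5. The second nearest liver was at 0.44 for HCC 1 and 0.37 for HCC 2, and for HCC 3, HCC 4 and HCC 5 at 0.49, 0.50 and 0.46. The margin was therefore small in HCC 2 and wide in the tissues of the male mice. Pearson correlations with the own liver across these probes were 0.83, 0.87, 0.74, 0.94 and 0.98 in HCC 1 to 5, a description over 100 probes in tissues that share the inherited DNA of a mouse. With unaffected liver 3, of another mouse, HCC 1 to 3 correlated at 0.69, 0.77 and 0.59. Of the 46 probes displaced in unaffected liver 3, 44 were carried in the same direction by HCC 5 and 42 by HCC 4 of the same mouse, 36 by HCC 1 and 38 by HCC 2 of mouse 3151, and 18 by HCC 3. Of the 10 probes displaced in unaffected liver 2, HCC 3 of the same mouse carried 9, and so did HCC 4 and HCC 5 of another mouse. Unaffected liver 1 had the largest set, with 79 displaced probes. Its own tumors carried fewer of these, 49 (62.0%) for HCC 1 and 46 (58.2%) for HCC 2. Tumors of other mice carried 14 (HCC 3), 37 (HCC 4) and 36 (HCC 5). Both tumors of mouse 3151 thus carried a larger share of the probes of unaffected liver 3, at 78.3% and 82.6%, than of their own liver.

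The 10 probes farthest from the Chr17 median by the mean of the livers included all 5 with the widest range among the livers. The J00393 probe, annotated as an H2-K-d transplantation antigen of MHC class I, had -3.85, -0.17 and -2.87 relative to Chr17 in unaffected livers 1 to 3 and -3.04, -3.43, -0.042, -2.42 and -2.96 in HCC 1 to 5. Both tissues of mouse 3760 were near 0 and all others were far below. Probes with only a position at chr17:36430425-36430484 and chr17:41161632-41161691 had the same division, with -2.46, 0.073 and -2.34 and with -3.19, -0.0052 and -2.73 in the livers, although HCC 3 was at -0.46 at the latter. Ezr, which is not among the 10, showed it too, at -0.74, -0.062 and -1.52 in the livers and -1.04, -1.25, 0.13, -1.75 and -1.83 in the HCC. The phosphodiesterase gene Pde9a and Cyp39a1, an oxysterol hydroxylase gene of bile acid synthesis, had -1.65 and -1.42 in unaffected liver 1 and -0.78 and -0.83 in unaffected liver 3 against -0.32 and -0.12 in unaffected liver 2.

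Other probes divided the mice differently. The probe without a gene name at chr17:20196706-20196765 had -4.64, -4.07 and -4.43 in the 3 tissues of mouse 4033 (unaffected liver 3, HCC 4 and HCC 5) and between -1.90 and -0.99 in the remaining 5 tissues. Every tissue was thus below its Chr17 median here, and mouse 4033 was far below. The vomeronasal receptor gene V1rf2 (now Vmn1r235) was above the median in all 8 tissues, from 0.53 in unaffected liver 1 to 1.45 in unaffected liver 3, and so was the probe at chr17:22675442-22675501, from 0.91 in HCC 3 to 1.86 in HCC 4. The ciliary transport gene Ift140 was below it in all 8, from -1.54 in HCC 4 to -0.21 in HCC 3.

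The Cdc42ep3 probe was the only one of the 10 that lay at least 0.5 below the Chr17 median in some tissues and at least 0.5 above it in others. Relative to Chr17 it was at -0.96, -0.66 and -0.60 in the tissues of mouse 3151 (unaffected liver 1, HCC 1 and HCC 2), and at 1.84 and 2.73 in unaffected livers 2 and 3 and 2.33, 2.02 and 3.25 in HCC 3 to 5. The low tissues were those of the female mouse, hybridized against male DNA, and the high ones those of the male mice, hybridized against female DNA, so that sex, mouse and reference DNA cannot be told apart. Where segmentation marked a region around this probe, in HCC 5 and in unaffected livers 2 and 3, the region rested on this probe alone.

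**Figure D5:**
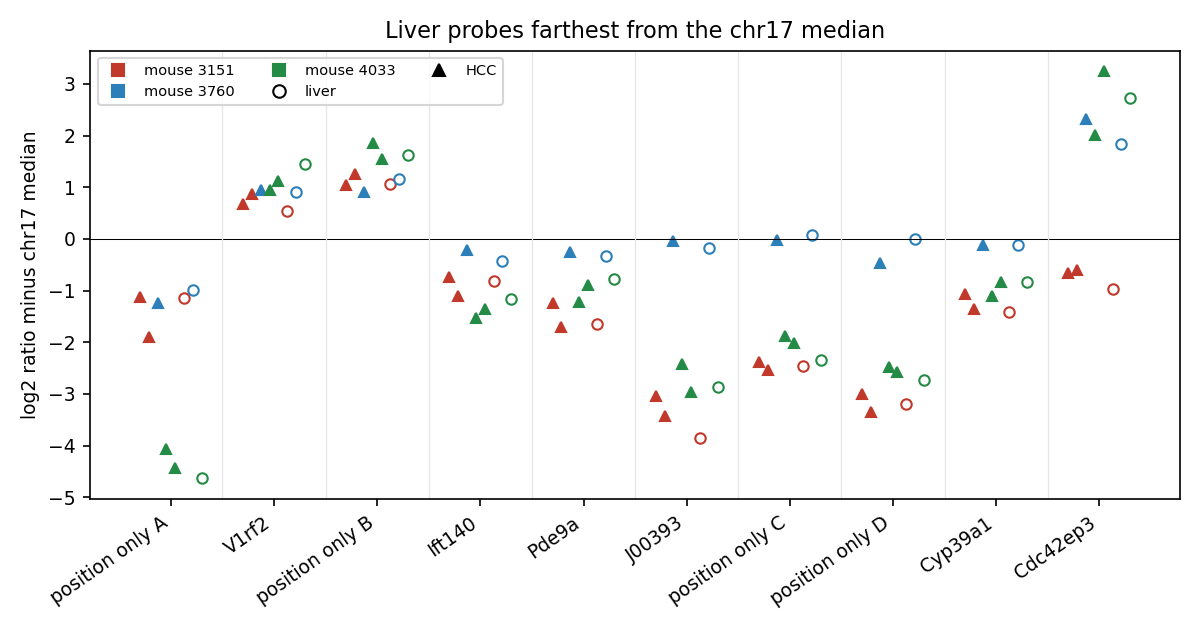
log2 ratio minus the Chr17 median of the tissue (y axis) for the 10 probes farthest from it in the livers, in order of position (x axis; position only A to D are the probes without a gene name at 20196706, 22675442, 36430425 and 41161632), with open circles for livers, triangles for HCC and colors for mice. Mouse 3760 is near 0 where J00393 and position only C are at -3.85 to -1.88 in the other mice. Tumor and liver of a mouse do not lie together at every probe. For V1rf2, HCC 4 is at 0.94 and the liver of its mouse at 1.45, with unaffected liver 2 at 0.90.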

How the data were processed

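Array CGH was performed on 15 arrays (Agilent mouse 44K design) for 8 tissues. The deposited scanner files hold intensity values per spot and dye, spatially detrended and dye-normalized by Agilent Feature Extraction per the file headers. Log10 ratios deposited by the authors in the series matrix, equal to the scanner log ratios with dye swaps turned, served as an alternative. Probe positions are those of the files, and their genome build is not given in the sources used here. Of 909 gene names on Chr17, 586 are symbols in RefSeq (GRCm38.p6 table, used for names only) and 123 are synonyms of 1 symbol.

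Control spots and outlier marks were left out, log2 tissue over reference was taken from the processed intensity values, spots of a probe were averaged, each array was centered on its autosomal median with no loess or quantile step, and dye orientations were averaged. Centering makes every level relative to the median autosome of that tissue. HCC and unaffected livers were compared with limma 3.58.1 in R 4.3.3 (lmFit, eBayes, Benjamini-Hochberg adjustment) over 19 autosomes, 5 Mb windows, autosomal probes or gene names, and by exact permutation (scipy 1.17.1). Tissue weights are those of limma's arrayWeights. Segments were found by optimal partitioning (penalty 3 times squared noise times the logarithm of the number of autosomal probes). The limma fits and the segmentation were tested on simulated data. Tumors and livers are paired by mouse. Deviations from the group means correlated at 0.20 to 0.44 for a tumor and its own liver over the Chr17 probes. With the other livers the correlations ran from -0.26 to 0.00022. The deviations of the livers cancel out at each probe, which pulls these values down. All own pairs except that of HCC 4 also shared a scan day. Alternatives were normexp with an offset of 50, other centerings, single dye orientations, spot filters, the series matrix, tissue weights, mouse or scan day as a term, other window sizes and segment settings, and each tissue left out. Regression on probe GC content, dye-swap arrays alone and omission of the variable probes were added after seeing the data.

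The members and gene lists were chosen with earlier results of these data known. Of segments far from the Chr17 median, those resting on 1 probe were counted but not all named. Named genes are those with the lowest and highest difference in each list and those whose role bears on the spindle checkpoint or liver tumors; named probes are the 5 with the smallest limma p, the 5 with the largest difference without overlap, and the livers' 10 probes farthest from the Chr17 median and 5 with the widest range. Ezr and the edge probes of the block were added after their values were seen. P-values measure the spread between tissues of 3 mice.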

Additional observations from a re-analysis of the deposited data

Results flagged for a closer look

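Of 41 sets of 5 HCC values examined, namely those of the Chr17 level, the block and the named genes and probes, 1 had a value far from the other 4, where chance alone marks about 1 set in 20. The probe at chr17:36430425-36430484 had a value relative to the Chr17 median of -0.011 in HCC 3 and between -2.53 and -1.88 in the other HCC, and the gap was 0.744 of the whole range. Unaffected liver 2, of the same mouse as HCC 3, was at 0.073.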

How the results depend on the processing

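The Chr17 difference between HCC and unaffected livers stayed below 0 under all 22 alternatives, from -0.24 to -0.093, and passed the limma test only with tissue weights (-0.24, adjusted p = 0.017), which also called 19 windows (30.4% of all autosomal windows); adjusted p ranged from 0.017 to 0.75. Leaving out each tissue gave -0.23 to -0.10. With mouse as a replicate block the difference was -0.14 (adjusted p = 0.59), and the block changed no call. HCC 1 and HCC 4 were past -0.3 in each alternative. Centering on the mode moved HCC 5 to -0.20, and forward arrays alone moved unaffected liver 1 to -0.10. Segments against the reference numbered 56 with normexp and 42 with forward arrays alone, and those of HCC minus own liver numbered 8 with a penalty of 2, in HCC 1 and HCC 5. Of 360 alternative values of 20 named genes, 329 kept their direction and none passed. Relative to the Chr17 median the difference turned to 0.12 in Glo1, 0.14 in Olfr112, 0.034 in Mad2l1bp, 0.082 in Sgol1, 0.019 in Igf2r, 0.094 in Tsc2, 0.0013 in Cdkn1a and 0.011 in Plg. It turned to -0.056 (mode) and -0.022 (GC) in Tubb4, to 0.056 (normexp), 0.18 (forward) and 0.0032 (replicate block) in Olfr112, to 0.036 (forward) in Cdkn1a, and to -0.0025 (mode) and -0.0093 (forward) in Vegfa. Leaving out each tissue gave lowest and highest values of -0.021 and 0.030 in Tubb4, -0.077 and 0.28 in Dusp1, -0.28 and 0.18 in Glo1, -0.29 and 0.13 in Olfr112, -0.41 and 0.018 in Cenpq, -0.18 and 0.016 in Tsc2, and -0.37 and 0.024 in Cdkn1a. The cause was not tested.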
